A study of Homo sapiens with 4 samples.

Results

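Protein tyrosine phosphatases and dual-specificity phosphatases were followed through H3K27ac profiles of Kasumi-1 cells with and without a guide against SETD8. The members are all regions whose assigned gene name starts with PTPN, PTPR or DUSP. They numbered 175 of the 45672 regions in the 4 deposited tables and carried 36 gene names, 35 of them phosphatase family genes and 1 the antisense RNA PTPRG-AS1. RefSeq lists 91 genes with these prefixes, of which 63 are protein coding. Kasumi-1 cells derive from human acute myeloid leukaemia and carry the RUNX1 and RUNX1T1 fusion of t(8;21). All groups were Kasumi-1 cells in the same medium. The control group carried a non-targeting guide (sgNT, labelled wild type, 2 samples), and the other group a CRISPR/Cas9 guide against SETD8 (sgSETD8, labelled SETD8 knockout, 2 samples). SETD8 (gene symbol KMT5A) is the enzyme that monomethylates H4K20. H3K27ac, the acetylation of histone H3 at lysine 27 found at active enhancers and promoters, was measured by CUT&Tag, in which an antibody brings a transposase to the marked chromatin. The series' design text names H3K27me1, while all 4 titles and antibody labels name H3K27ac. The labels do not say whether the samples of a group came from separate cultures, clones or pools.

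Protein tyrosine phosphatases remove phosphate from tyrosine and so oppose tyrosine kinases. Receptor-type members span the membrane and carry extracellular domains, non-receptor members act in the cytoplasm or nucleus, and dual-specificity members also act on serine and threonine. The MAP kinase phosphatases among the latter switch off ERK, JNK and p38, and several of their genes are themselves induced by that signalling. In blood cells CD45 (PTPRC) sets the activity of SRC family kinases, SHP-1 (PTPN6) restrains receptor signalling, and SHP-2 (PTPN11) carries growth factor signals to RAS and ERK.

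By the naming scheme of their region identifiers the 4 tables form 2 pairs, called sparse (5186 sgNT and 7276 sgSETD8 regions) and dense (15149 and 18061) here. A region is 1 peak or several stitched peaks, and its assigned gene is a label of position. Read depth is unknown, because the tables hold no counts. With 2 tables against 2, the smallest exact two-sided permutation p is 0.333, so differences are described and not tested. Every comparison was made within a pair, and agreement of the pairs is the only replicate check. All 10 listed markers of the labelled line had a dense region in both groups, and 7 and 8 of them had one in the sparse sgNT and sgSETD8 tables. Of 18 markers of other cell types, 5 and 7 had a dense region. The targeted gene KMT5A had 1 region in each dense table and 0 in each sparse one, and this mark does not show whether the protein was lost.

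A set of 3 promoters is shown, picked from those that the dense regions covered in only one of the groups. All of those are named in the next paragraph, and the motifs of the 3 shown do not describe them as a set. A link between motifs and cover was not tested. Each window runs from 250 bases before to 50 bases after the RefSeq start (GRCh38.p14, 5′ to 3′ on the gene's strand), and capitals mark the RUNX core TGTGGT on either strand. PTPN22 lies at chr1:113871663-113871962 on the minus strand, DUSP6 at chr12:89352452-89352751 on the minus strand and PTPRC at chr1:198638790-198639089 on the plus strand.
PTPN22: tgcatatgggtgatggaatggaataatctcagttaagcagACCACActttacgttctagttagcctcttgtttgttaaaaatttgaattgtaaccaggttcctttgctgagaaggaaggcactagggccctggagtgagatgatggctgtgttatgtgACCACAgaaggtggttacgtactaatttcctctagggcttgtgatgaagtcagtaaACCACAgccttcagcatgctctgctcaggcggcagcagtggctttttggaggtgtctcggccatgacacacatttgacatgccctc
DUSP6: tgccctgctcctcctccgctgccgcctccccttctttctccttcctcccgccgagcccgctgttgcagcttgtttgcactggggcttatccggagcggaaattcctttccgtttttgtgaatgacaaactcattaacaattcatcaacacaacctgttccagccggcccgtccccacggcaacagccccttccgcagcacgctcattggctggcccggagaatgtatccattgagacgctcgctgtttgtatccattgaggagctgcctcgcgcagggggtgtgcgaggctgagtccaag
PTPRC: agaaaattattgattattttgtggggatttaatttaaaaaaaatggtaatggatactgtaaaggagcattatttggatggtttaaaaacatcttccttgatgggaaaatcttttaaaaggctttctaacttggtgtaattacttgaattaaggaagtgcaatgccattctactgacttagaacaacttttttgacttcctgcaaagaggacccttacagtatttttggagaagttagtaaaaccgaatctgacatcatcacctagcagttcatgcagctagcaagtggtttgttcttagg
The PTPN22 window holds ACCACA, the reverse complement of the RUNX core, 3 times, at positions -210, -92 and -36 from the start. Of all 35116 RefSeq windows, 13.1% hold at least 1 match and 44 windows (0.125%) hold at least 3. Among the 91 windows of genes with these prefixes, 11 hold at least 1 match, and PTPN22 has the only window with at least 3. The DUSP6 and PTPRC windows hold none of the 7 motifs searched on both strands. These were the RUNX core, the ETS core CCGGAA, AP-1 TGANTCA, CRE TGACGTCA, the shorter TGACG that lies inside CRE, a GATA factor motif (AGATAA) and the E-box CACGTG. The DUSP6 window has a GC content of 58.3% and 19 CpG, the PTPN22 window 46.7% and 4, and the PTPRC window 33.7% and 1, beside a median GC content of 58.7% over all windows. A match is a string of letters and not a measured binding site.

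Promoter windows counted as covered when a stitched region included any of their bases, which also happens where the start falls in a gap between stitched peaks. Of 64 RefSeq genes with these prefixes and a window, 8 (12.5%) were covered in dense sgNT and 10 (15.6%) in dense sgSETD8, beside 7.96% and 9.26% of all 27305 genes with a window. Both counts include the long non-coding RNAs PTPN23-DT and PTPRC-AS1, covered by regions assigned to PTPN23 and PTPRC. They are therefore not counts of phosphatase promoters alone. Covered with sgSETD8 alone were 5 of the 64, DUSP6, DUSP10, DUSP22, PTPN1 and PTPN22 (28.7% of the 3049 genes covered in either dense table). Covered with sgNT alone were 3, PTPRC, PTPN2 and DUSP13 (17.1% of those genes). The sparse tables covered 0 of the 64, where they covered 149 genes, 24.2% with sgSETD8 alone and 60.4% with sgNT alone.

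Counted over the whole family, phosphatase regions were slightly more with sgSETD8 in the dense pair and fewer in the sparse pair, and both ratios lay below those of the whole tables. The dense pair held 68 sgNT and 73 sgSETD8 phosphatase regions, a ratio of 1.07 where all regions gave 1.19. The sparse pair held 18 and 16, a ratio of 0.889 where all regions gave 1.40. The mean log2 ratio was -0.034 ± 0.19 (SD, n = 2 pairs), and the pairs differed in sign. Over all regions it was 0.37 ± 0.17. Phosphatase regions made up 0.449% of the dense sgNT table (exact Clopper-Pearson 95% interval 0.349 to 0.569) and 0.404% of the dense sgSETD8 table (0.317 to 0.508). In the sparse pair the shares were 0.347% (0.206 to 0.548) and 0.220% (0.126 to 0.357). These intervals overlap within each pair. They cover the counting of regions only and treat regions of 1 gene as independent.

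By gene, 30 members had a dense region with sgNT and 32 with sgSETD8, and 14 and 11 had a sparse one. More dense regions with sgSETD8 were found for 9 members (37.3% of all genes with a dense region) and fewer for 4 (21.2%), while 20 had equal numbers. Sparse regions were more numerous with sgSETD8 for 8 members (51.3% of genes with a sparse region) and fewer for 9 (33.4%). Regions in both sgSETD8 tables but neither sgNT table were found for 0 members (2.85% of all 13171 genes), and the reverse for 0 (0.858%). PTPN14, PTPRA, PTPRC, PTPRG, PTPRH and PTPRJ, 6 of the 36, had a region in all 4 tables (12.1% of all genes).

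**Figure D1:**
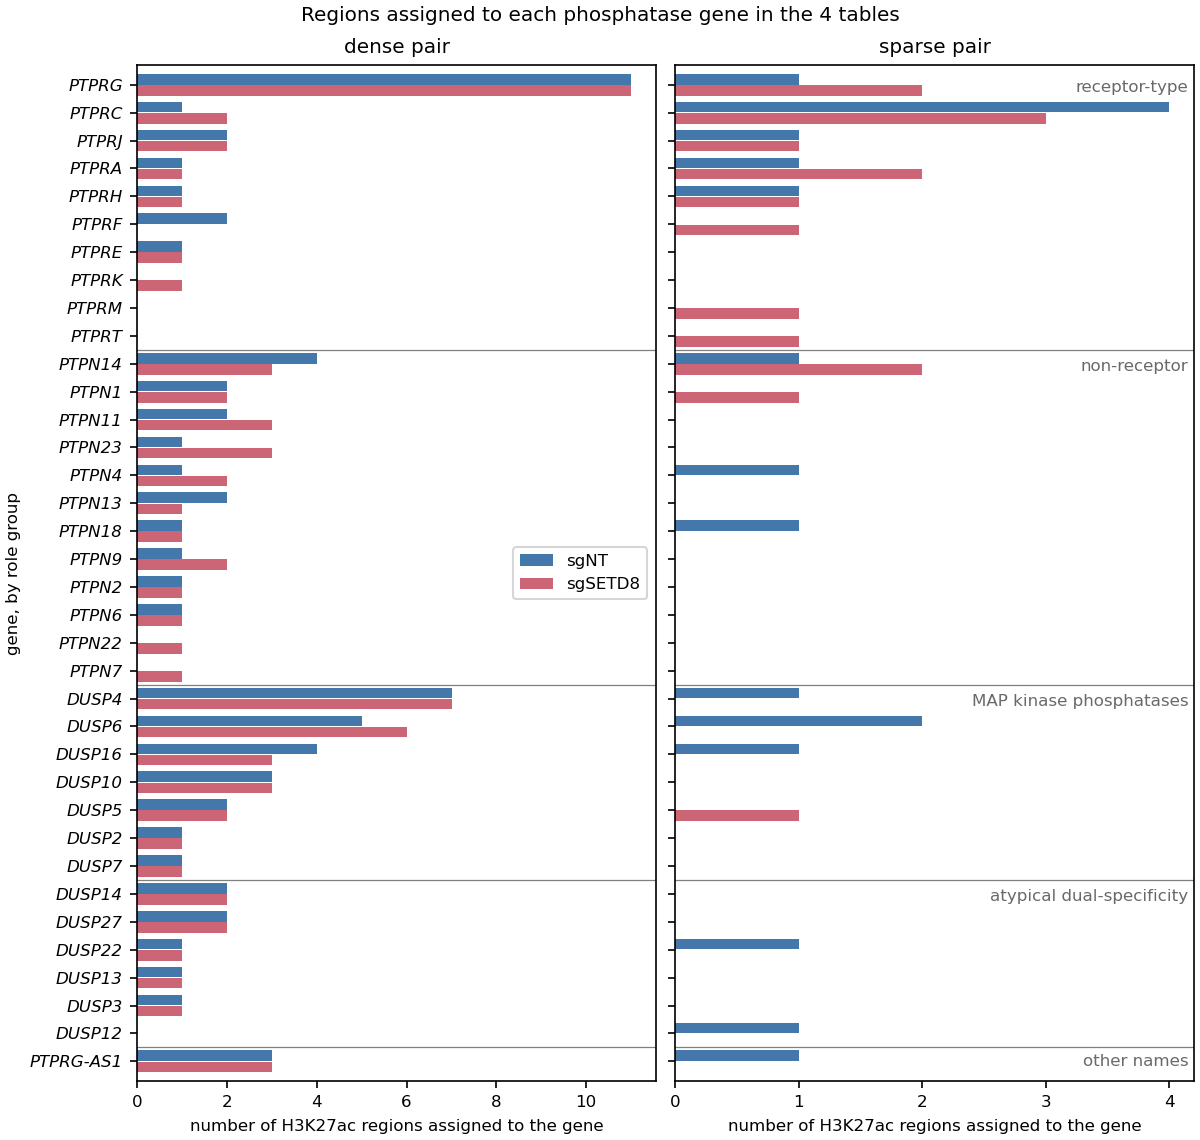
Number of H3K27ac regions assigned to each of the 36 member genes (rows, by role group) in the dense pair (left) and the sparse pair (right), for sgNT (blue) and sgSETD8 (red), 1 table per bar. PTPRG reaches 11 regions in both dense tables, DUSP4 reaches 7 in both, and PTPRC leads the sparse pair with 4 and 3.

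Receptor-type phosphatases had equal region numbers in the dense pair. Of the 20 genes listed, 10 had a region in any table. The dense tables held 19 regions in each group, over 357 kb with sgNT and 436 kb with sgSETD8, and the sparse pair 8 and 12 regions over 5.39 and 4.89 kb. The dense length ratio was 1.22, and 1.09 without PTPRG, beside 1.15 over all regions. Regions named PTPRG-AS1 are left out of these receptor-type values. PTPRB, PTPRD, PTPRN, PTPRN2, PTPRO, PTPRQ, PTPRR, PTPRS, PTPRU and PTPRZ1 had none under their own name. In sparse sgSETD8, regions assigned to other genes covered 24.5 kb of the PTPRN2 span.

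PTPRC encodes CD45, the phosphatase of nearly all nucleated blood cells. Its dense sgNT region was a single stretch of 62.1 kb with 15 peaks at chr1:198621079-198683219, from upstream of the gene into intron 2, ranked 560 of 15149 by the authors' signal. With sgSETD8 the dense table held a 2.33 kb region upstream (rank 6142) and an 84.4 kb region with 16 peaks at chr1:198641149-198725531 (rank 590 of 18061). Covered length, gaps between stitched peaks included, was thus 62.1 and 86.7 kb, and the gap between the sgSETD8 regions lay over the start site printed above. Signal per bp in the large region was 0.539 with sgNT and 0.325 with sgSETD8. These values were not centred, and the 2 regions differ in width and position. Dense regions that covered each other by at least 90% had a median log2 ratio of -0.26. The sparse pair held 4 and 3 PTPRC regions, and both had peaks at about the same upstream site and in intron 2 about 2.7 kb after the start.

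PTPRG encodes a receptor phosphatase with a carbonic anhydrase-like outer domain, and its gene spans 736 kb. It had 11 dense regions in each group, but these held 23 peaks over 79.5 kb with sgNT and 33 peaks over 133 kb with sgSETD8. The antisense name PTPRG-AS1 had 3 dense regions in each group, with 6 and 16 peaks over 19.2 and 80.1 kb. Those 3 regions lie inside PTPRG and outside the RefSeq span of PTPRG-AS1, so they were read with PTPRG. Dense regions of any name covered 13.4% of the PTPRG gene with sgNT and 28.9% with sgSETD8. The widest gain ran from 18.1 kb (chr3:61979376-61997431, rank 3124) to 57.0 kb (chr3:61952469-62009502, rank 980). In the sparse pair the counts went apart: PTPRG had 1 and 2 regions and PTPRG-AS1 had 1 and 0, at sites that did not overlap between groups.

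PTPRA and PTPRJ carried the longest single regions of the family. PTPRA, which activates SRC by removing its inhibitory phosphate, had 1 dense region in each group, 111 kb with 23 peaks in sgNT (rank 218) and 104 kb with 20 peaks in sgSETD8 (rank 280). PTPRJ, also named CD148, had 82.6 kb with 23 peaks in sgNT (rank 236) and 92.8 kb with 21 peaks in sgSETD8 (rank 181), mostly in intron 1. A second PTPRJ region about 40 kb upstream was 19.5 and 9.93 kb. Summed over its 2 regions, PTPRJ covered 102 and 103 kb. Regions of any name covered 78.1 and 114 kb of the PTPRJ gene, MIR3161 among the names, and 109 and 97.5 kb of the PTPRA gene.

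The other receptor-type members had at most 2 regions in a table. PTPRE went from 0.468 kb and 1 peak (rank 12557) to 8.37 kb and 3 peaks (rank 5089) in intron 1 of the dense pair. PTPRH had 1 region in each table, all at the same site about 7 kb from its start, with sparse ranks of 1029 (sgNT) and 1145 (sgSETD8) and dense ranks of 12047 and 12074. PTPRF had 2 dense sgNT regions (ranks 14936 and 11514) and 0 with sgSETD8, yet 0 sparse sgNT and 1 sparse sgSETD8 region (rank 1893), so the pairs pointed opposite ways. Regions of another name lay over the PTPRF gene in all 4 tables, and those of any name covered 1.82 and 1.03 kb of it in the dense pair. PTPRK had 1 weak dense sgSETD8 region, rank 15052, lying 65.8 kb from its start. PTPRM and PTPRT each had 1 sparse sgSETD8 region of 0.274 kb, the narrowest width of that table.

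**Figure D2:**
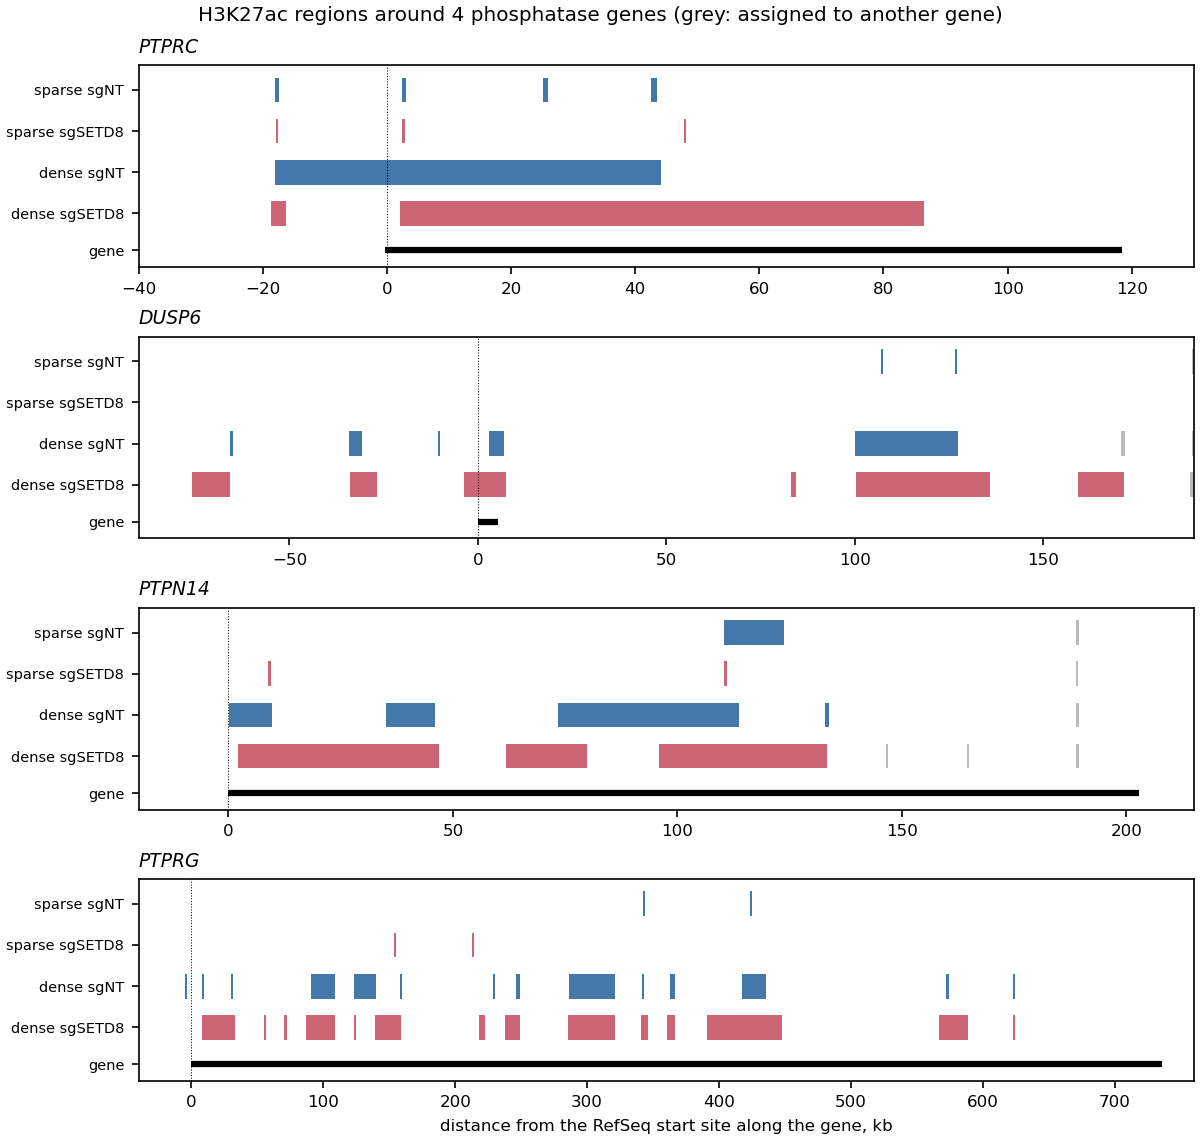
H3K27ac regions of the 4 tables (tracks) around PTPRC, DUSP6, PTPN14 and PTPRG, plotted by distance in kb from the RefSeq start along the gene; coloured bars are member regions, grey bars are assigned to another gene, and the black bar is the gene. The dense sgSETD8 track leaves a gap over the PTPRC start and fills the DUSP6 start. Dense regions cover more of the PTPRG gene with sgSETD8 (28.9%) than with sgNT (13.4%).

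Non-receptor phosphatases held all of the 5 regions by which dense sgSETD8 exceeded dense sgNT. Of the 17 listed genes, 12 had a region, with 16 dense sgNT and 21 dense sgSETD8 regions over 274 and 306 kb. More dense regions were found for 6 members and fewer for 2, and the sparse tables held 3 regions in each group. PTPN3, PTPN5, PTPN12, PTPN20 and PTPN21 had none. The gain of PTPN22 lay over an sgNT region of another name. PTPN22, which restrains SRC family and ZAP70 signalling in lymphocytes, had 1 with sgSETD8 alone (chr1:113857985-113874794, 16.8 kb, rank 2691). An sgNT region of 10.8 kb assigned to AP4B1-AS1 overlapped it (chr1:113858208-113869052) and ended short of the promoter window printed above. By name, 3 members had dense regions with sgSETD8 alone (20.5% of all genes) and 1 with sgNT alone (11.4%).

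SHP-2 and SHP-1 had short regions of middle rank in both groups. PTPN11 had 2 dense sgNT regions and 3 with sgSETD8, over 10.0 and 14.7 kb. Its intron 1 region was 8.45 kb in sgNT (rank 5082) and 7.98 kb in sgSETD8 (rank 6424), and its intron 2 region 1.56 and 1.60 kb. The added sgSETD8 region, 5.11 kb in intron 6 (chr12:112470181-112475291, rank 8279), had no counterpart. PTPN6 had 1 dense region in each group in intron 3, 1.15 kb in sgNT (rank 8354) and 2.14 kb in sgSETD8 (rank 7902). Neither name had a sparse region. Regions of any name, MIR200CHG among them, covered 3.83 and 4.53 kb of the PTPN6 gene in the dense pair and 0.679 and 0.896 kb in the sparse pair.

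PTPN14, which has a FERM domain and binds the Hippo effector YAP, had the most regions of the non-receptor genes. Its dense regions went from 4 to 3 while their peaks went from 16 to 21 and their length from 61.8 to 101 kb. Among the best-ranked 5000 regions of each table, PTPN14 had 1 more region with sgSETD8, the opposite sign to the full count. Among sparse regions a 13.5 kb sgNT region with 3 peaks (rank 249) faced a 0.673 kb sgSETD8 region (rank 971). The pairs thus went opposite ways in length, and sparse length was 13.5 kb with sgNT and 1.11 kb with sgSETD8.

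Other non-receptor genes went both ways in the dense pair. PTPN4, which has FERM and PDZ domains, went from 1.75 kb with 2 peaks to 27.4 kb with 6 peaks. The sparse pair went the other way for PTPN4, with 1 sgNT region of 0.585 kb and 0 sgSETD8 regions. PTPN9, which carries a lipid-binding SEC14 domain, went from 36.3 kb with 6 peaks (rank 2187) to 0.847 kb with 2 peaks (ranks 16061 and 16751), although its region count went from 1 to 2. PTPN13 went from 2 regions to 1. PTPN23, a partner of the ESCRT machinery, went from 1 region of 46.6 kb to 3 of 31.2 kb in all. PTPN1 and PTPN2, which act on the insulin receptor and JAK kinases, covered 59.1 and 44.1 kb with sgNT and 45.5 and 39.8 kb with sgSETD8. The count of regions and their length pointed opposite ways for PTPN9, PTPN14 and PTPN23, so neither alone describes these genes.

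MAP kinase phosphatases had equal counts in the dense pair and fewer sparse regions with sgSETD8. Of 10 listed genes, 7 had a region. The dense tables held 23 in each group, over 140 and 193 kb, and the sparse pair 4 and 1. DUSP1, DUSP8 and DUSP9 had none, and no region of any name lay over their RefSeq spans. DUSP6, which dephosphorylates ERK and is induced by it, went from 5 to 6 dense regions, from 12 to 20 peaks and from 35.8 to 77.8 kb. At the gene itself a 3.89 kb sgNT region with 2 peaks (chr12:89345677-89349562, rank 4217) faced an 11036 bp sgSETD8 region with 4 peaks (chr12:89345062-89356097, rank 1552). Signal per bp there was 1.199 with sgNT and 1.193 with sgSETD8. These values were not centred, and the 2 regions differ in width. Dense regions that covered each other by at least 90% had a median log2 ratio of -0.26. The sgNT region covered 44.2% of the gene and the sgSETD8 region all of it and the promoter window. The longest of the other sites lay about 114 kb (sgNT) and 118 kb (sgSETD8) beyond the start, with 27.5 kb and 6 peaks in sgNT and 35.6 kb and 8 peaks in sgSETD8. One sgSETD8 region of 12.3 kb assigned to DUSP6 overlapped an sgNT region assigned to LINC02458. The sparse pair went the other way, with 2 sgNT regions at that distal site and 0 sgSETD8 regions. Within 50000 bp of the start DUSP6 had 1 dense region fewer with sgSETD8, the opposite sign to the full count.

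DUSP4, a nuclear phosphatase of ERK and JNK, had 7 dense regions in each group over 14.4 and 14.9 kb. DUSP10, which acts on JNK and p38, had 3 in each group, over 26.9 and 45.2 kb. Its main region went from 26.1 kb (rank 1737) to 33.3 kb (rank 855) and reached the upstream start with sgSETD8. DUSP16, another JNK and p38 phosphatase, had 4 and 3 dense regions over 38.9 and 42.4 kb. DUSP5, an ERK phosphatase of the nucleus, had 2 and 2 over 16.9 and 10.1 kb, and DUSP2 had 1 and 1 over 4.89 and 0.746 kb. DUSP4, DUSP6 and DUSP16 had sparse regions with sgNT alone and DUSP5 with sgSETD8 alone. Over the family, 8 members had sparse regions with sgNT alone (28.8% of genes with a sparse region) and 5 with sgSETD8 alone (45.9%).

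Atypical dual-specificity phosphatases, which lack the MAP kinase-binding domain, had equal dense numbers. Of 15 listed genes, 6 had a region, with 7 dense regions in each group over 94.6 and 81.0 kb and 2 and 0 sparse ones. DUSP11, DUSP15, DUSP18, DUSP19, DUSP21, DUSP23, DUSP26, DUSP28 and DUSP29 had none by name. Dense regions assigned mainly to DUPD1, an earlier symbol of DUSP29, covered 9.71 kb (sgNT) and 1.11 kb (sgSETD8) of the DUSP29 gene. DUSP22, which acts on JNK and LCK pathways, had 1 region over almost the whole gene in both dense tables, 60.5 kb in sgNT (rank 135) and 63.7 kb in sgSETD8 (rank 108), each with 15 peaks. It was the best-ranked phosphatase region of both dense tables. DUSP27, named STYXL2 in RefSeq, had 2 dense regions in each group. DUSP13 went from 22.3 kb with 3 peaks to 2.97 kb with 1 peak. DUSP12 had a single sparse sgNT region.

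Covered length could be compared for 29 members with a region in both dense tables. It was longer with sgSETD8 for 16 of them (61.1% of the 7376 genes with a region in both). DUSP6, PTPRG-AS1, PTPN4 and PTPRE, 4 of the 29, were more than 2 times longer (26.1% of those genes), and PTPN9, DUSP13, DUSP2 and PTPN13, 4 of the 29, had less than 50% of the sgNT length (13.2%). The median log2 ratio was 0.048 for the members and 0.19 for all genes. Dense length summed over all members was 885 kb with sgNT and 1096 kb with sgSETD8, a ratio of 1.24. All dense regions gave 1.15. PTPRG and PTPRG-AS1 read together gave 2.16 (98.7 and 213 kb), and the members without these 2 names gave 1.12. The sparse length was 23.1 and 6.55 kb, a ratio of 0.284, where all sparse regions gave 0.888. Without PTPN14 it was 9.57 and 5.44 kb, a ratio of 0.568. Sparse phosphatase regions had a median width of 558 bp in sgNT and 300.5 bp in sgSETD8.

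**Figure D3:**
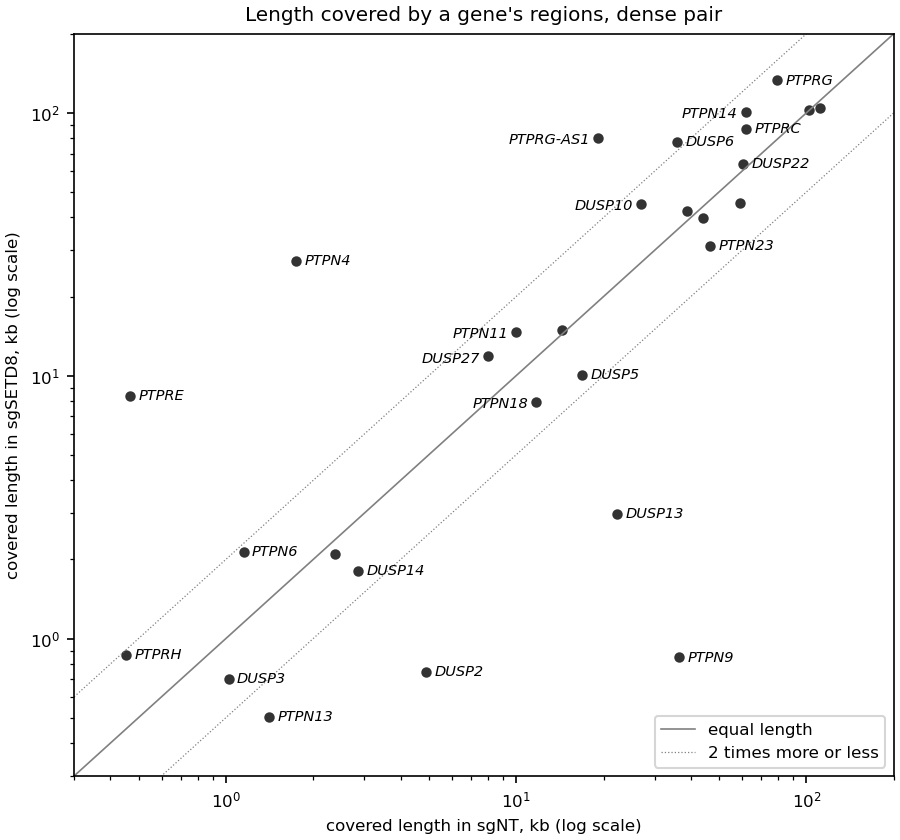
Length in kb covered by the regions of each of 29 member genes in the dense pair, sgNT (x axis) against sgSETD8 (y axis), both on log scales, 1 table per axis. The solid line marks equal length and the dotted lines 2 times more or less; 4 genes lie beyond each dotted line.

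Ranks by the authors' signal placed phosphatase regions above the middle of the dense tables. The median rank was 6514.5 in dense sgNT, where the table's own median is 7575, and 5992 in dense sgSETD8, where it is 9031. In the sparse pair the medians were 2533.5 against 2593.5, and 3989 against 3638.5. The ranked signal is density times width, so wide regions rank higher. Median signal per bp of phosphatase regions was below the table's in dense sgNT (0.624 against 0.756) and dense sgSETD8 (0.541 against 0.589). It was 1.36 against 1.49 in sparse sgNT and 0.9175 against 0.810 in sparse sgSETD8. Super-enhancers were computed here, not called by the authors, with the slope of 1 on the scaled, ranked signal as the limit. They numbered 709 and 769 in the dense tables (4.68% and 4.26% of all regions), and 4 of the 68 and 5 of the 73 member regions were among them. The sparse pair had 157 and 204, with 0 members. PTPRC, PTPRJ, PTPRA and DUSP22 were in both, and PTPN1 was past the point in sgSETD8 alone, at rank 723 there and 721 in sgNT. The difference for PTPN1 is thus one of the threshold and not of rank.

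**Figure D4:**
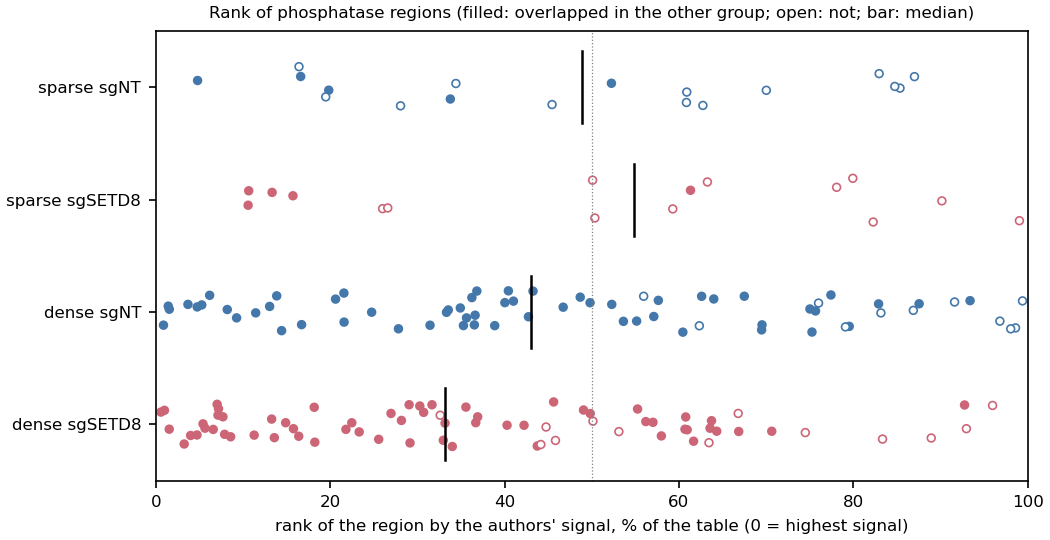
Rank of each phosphatase region by the authors' signal, as a percentage of its table (x axis, 0 is the highest signal), in the 4 tables; filled points overlap a region of the other group in the pair, open points do not, and the black bar is the median. Open points of dense sgNT all lie beyond 50%, and the medians of the dense tables lie before it.

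Most dense phosphatase regions had an overlapping region in the other group. In dense sgNT 11 of 68 lacked one (16.2%, interval 8.36 to 27.1), beside 22.7% of all regions. In dense sgSETD8 13 of 73 lacked one (17.8%, 9.84 to 28.5), beside 34.0% of all regions. Phosphatase regions were wider than the table, with a median of 2341.5 bp against 1515 bp in sgNT and 5879 bp against 1499 bp in sgSETD8, and the part of width in these shares was not tested. The median rank of regions without a counterpart was 13160 in sgNT and 11458 in sgSETD8, against 5578 and 5257.5 for those with one. The best-ranked of them were a DUSP10 region in sgSETD8 (rank 5892, 11.4 kb, 46.7 kb from its start) and a DUSP4 region in sgNT (rank 8476). For the sparse pair, 13 of 18 sgNT regions (72.2%, 46.5 to 90.3) and 11 of 16 sgSETD8 regions (68.8%, 41.3 to 89.0) lacked a counterpart, beside 79.1% and 85.1% of all regions.

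Sparse regions were also looked up in the dense pair, to set one pair against the other. Of 18 sparse sgNT phosphatase regions, 17 overlapped a dense region of either group (94.4%, beside 79.0% of all regions). Of 16 sparse sgSETD8 regions 10 did (62.5%, interval 35.4 to 84.8, beside 29.3%). Of these 16, 8 had the table's narrowest width, 274 bp, beside 29.7% of all its regions. Of those 8, 3 overlapped a dense region, against 7 of the 8 wider ones. Of the 5 members with sparse regions in sgSETD8 alone, DUSP5, PTPN1, PTPRM and PTPRT had that width and PTPRF had 421 bp, and 0 of these regions overlapped a dense one. Of the 13 sparse sgNT regions without a counterpart, 12 did overlap a dense one. The shares over all narrowest regions and all regions without a counterpart are not given here. These subset counts therefore do not show a trait particular to phosphatases.

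Positions were also counted, by the annotation of each region's centre, which need not hold for the whole of a long region. The intron can belong to another gene, as at regions of DUSP14, PTPN23 and DUSP6 that lie outside those genes. Introns held the centres of 46 of 68 and 51 of 73 dense regions (67.6% and 69.9%, beside 68.3% and 67.5% of all regions). Intron 1 took 22 of the 46 (47.8%, beside 40.3% of all intronic regions) and 27 of the 51 (52.9%, beside 37.9%). Of the sparse regions, intron 1 took 3 of 10 intronic ones in sgNT (30.0%, beside 31.6%) and 5 of 10 in sgSETD8 (50.0%, beside 26.9%). PTPN2, PTPRA, PTPRJ, PTPN1 and DUSP16 had the centres of their longest dense regions in intron 1.

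Signal density could be set side by side at dense regions that covered each other by at least 90%. There were 1769 such regions, 10 of them at phosphatase genes, and the median log2 ratio of all 1769, -0.26, was subtracted because the authors' scaling is not stated. The members' median was then 0.05. Above 1 SD over all matched regions (0.24) were 2 members, PTPN13 (0.67) and PTPRG (0.54), beside 14.6% of all matched regions, and below it was 1, PTPN2 (-0.26), beside 14.2%. PTPN13 had 1.13 per bp with sgNT and 1.50 with sgSETD8 in a region of about 0.5 kb. PTPRG had 0.355 and 0.430 in a region of 34.4 and 36.0 kb in intron 2. PTPN11 gave -0.18 in intron 1 and 0.19 in intron 2, so its regions did not share a direction. DUSP22 (0.09), DUSP27 (0.22), PTPRA (-0.17) and the DUSP16 regions (-0.09 and 0.01) lay within 1 SD. With a cover of at least 50%, 22 of 30 member regions lay above the median of all (50.0% of the 6011), from -0.48 at DUSP14 to 0.73 at DUSP4, with a median of 0.18. In the sparse pair 0 member regions matched at 90% and 3 at 50%, at PTPRH, PTPRA and PTPRC, all below the median of all (-0.44, -0.15 and -0.09).

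**Figure D5:**
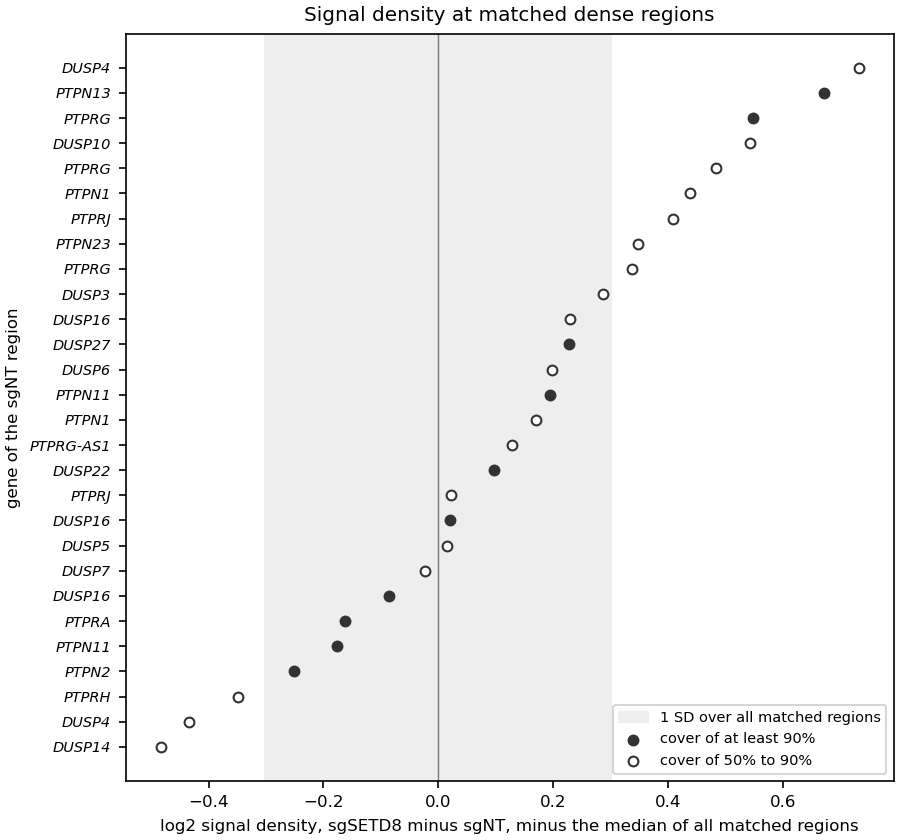
Log2 signal density at 28 of the 30 dense member regions matched between groups, those assigned to a member gene in both, sgSETD8 minus sgNT, with the median of all matched regions subtracted (x axis), 1 region per row named by its gene; filled points cover each other by at least 90%, open points by 50% to 90%, and the grey band is 1 SD over all matched regions. Values run from -0.48 at DUSP14 to 0.73 at DUSP4.

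Partner genes were described from a pair of lists. A list of 40 other genes of the tyrosine phosphatase superfamily holds the myotubularins and the CDC25 and EYA families. Of these, 23 had a dense region with sgNT and 26 with sgSETD8. More dense regions with sgSETD8 were found for 11 (37.3% of all genes with a dense region) and fewer for 1 (21.2%), 59 and 78 regions in all. Sparse regions were more for 10 (51.3% of genes with a sparse region) and fewer for 5 (33.4%), 20 and 27 regions in all. MTMR14 (0 and 2), PTP4A1 (0 and 1) and SSH1 (0 and 1) had dense regions with sgSETD8 alone (20.5% of all genes with a dense region). SBF2 had 3 and 7. Of 44 tyrosine kinases, adaptors and inhibitory receptors that these phosphatases act with, 28 had a dense region with sgNT and 29 with sgSETD8. Dense regions were more for 11 (37.3% of all genes with a dense region) and fewer for 6 (21.2%), 54 and 58 in all. Sparse regions were more for 7 (51.3% of genes with a sparse region) and fewer for 13 (33.4%), 37 and 26 regions in all. Dense regions were present with sgSETD8 alone for 4 of the 44 (20.5% of all genes with a dense region) and with sgNT alone for 3 (11.4%). Among these were INSR (0 and 2), CD33 (0 and 1), GAB1 (1 and 0) and JAK3 (1 and 0). The superfamily list gave a dense ratio of 1.32 and a sparse ratio of 1.35, beside 1.19 and 1.40 over all regions. The kinase list, like the PTPN, PTPR and DUSP genes, had more in the dense and fewer in the sparse pair.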

How the data were processed

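H3K27ac CUT&Tag was run on 4 samples of Kasumi-1 cells, 2 per group by their titles, from 100000 cells each per the labels' protocols. Per the submitters' processing notes, cutadapt and Bowtie2 were used with hg38. No source used here names the peak caller, stitching or annotation tool. The deposited tables hold 1 signal value per region, a density per bp multiplied by the region's width by the authors, whose scaling is not stated. Groups were read from the guide named in the region identifiers; those of the sparse sgNT table name only the cell line. Which sample of a group a table holds was not resolved, and 0 value columns were left without a group. Only chromosomes 1 to 22, X and Y entered.

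Members were matched to RefSeq by gene number (36 of 36). Overlaps needed 1 bp. Functions were tested on simulated regions. The members, lists and alternatives were chosen with earlier results of these data known. Named genes were those with the most regions, the largest gains and losses, the best ranks, the extremes of matched density, regions in 1 group only, and PTPN6, PTPN11, PTPRC, DUSP1 and DUSP6. Some values taken by this rule are not reported here. From each partner list up to 4 genes were named, those with dense regions in 1 group only first, larger differences next and then by alphabet. Alternatives kept 5000 regions by rank, the upper part by rank, widths of at least 500 bp, regions within 50000 bp of the start, protein-coding names or genes with at least 2 regions, merged neighbouring regions, counted peaks, required 50% cover, allowed a gap of 1000 bp, or left out a pair. Covered length and regions over a gene whatever their name were added after seeing the data. Scripts ran in Python 3.11.15 with pandas 2.3.3, numpy 2.4.6, matplotlib 3.10.9 and scipy 1.17.1.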

Additional observations from a re-analysis of the deposited data

How the results depend on the processing

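Most settings moved the mean log2 ratios of region and gene number by less than the SD over the pairs. That mean does not show moves of the 2 pairs in opposite directions. Among the best-ranked 5000 regions of each table it was -0.11 for regions, from -0.71 sparse and 0.49 dense. For genes it was -0.41, from -1.0 sparse and 0.18 dense. With regions of at least 500 bp the means became -1.08 for regions (-2.46 sparse, 0.30 dense) and -0.93 for genes (-2.0 sparse, 0.15 dense). The share of regions without a counterpart, sgSETD8 minus sgNT, became -35.2 percentage points (-81.8 sparse, 11.4 dense). Covered length in place of number gave -0.75, -0.86 without PTPRG and PTPRG-AS1, and -0.27 without PTPN14. Genes with at least 2 regions gave 0.59. Leaving out one pair at a time gave -0.17 to 0.10 for regions, -0.35 to 0.09 for genes and -3.47 to 1.63 points for regions without a counterpart, so the sign rests on the pair used. The cause of these moves was not tested. Merging neighbouring regions of a gene found nothing to merge among the members, so it says nothing of stability. Of 30 differences in a member's region number that were not 0, 4 took the opposite sign under at least 1 setting (DUSP6, PTPN9 and PTPN14 in the dense pair, PTPRG in the sparse pair), and 3 kept their sign under every setting run. Depth cannot be judged without counts. No paired analysis was possible because a fit with a replicate block needs replicate numbers, which the tables lack. The pairs used here rest on identifiers, and values are given per pair.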
